A study of Mus musculus with 5 samples.

Results

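Large-vessel endothelial cells line the portal veins, hepatic arteries and other conduit vessels of the liver, and here they were a set of 244 cells chosen by their molecule counts in a single-cell RNA survey of mouse liver, chiefly those of 2 transcripts, Vwf and Gja5. Vwf encodes von Willebrand factor, the clotting protein stored in Weibel-Palade bodies, and Gja5 encodes connexin 40, a gap junction protein of arterial endothelium. A cell was taken when Pecam1, Cdh5, Egfl7 and Ptprb together gave at least 5 molecules, Vwf and Gja5 together at least 2, the sinusoidal genes Stab2 and Clec4g together at most 5, the central vein genes Rspo3 and Wnt9b together at most 1, and the Kupffer cell genes Clec4f, Cd5l and Vsig4 together under 10. They were 244 of 9783 endothelial cells, of 17188 cells that passed the cell filters (at least 500 molecules, at least 200 genes and at most 25% mitochondrial molecules) and of 19815 cells in all. The 13 genes of the rule were used to choose the cells, so their levels are given only as a description.

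The liver has 2 endothelial systems in series. Conduit vessels carry a continuous endothelium with tight contacts, a basement membrane and an elastic wall, and they meet arterial or portal pressure directly. Sinusoids carry a fenestrated endothelium that filters blood, clears waste through scavenger receptors such as Stab2 and rests on little basement membrane. Arterial identity depends on Notch ligands and SOX17, venous identity on the transcription factor NR2F2, and both kinds respond to shear stress through KLF2 and KLF4.

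The libraries were made from livers of male wild-type mice that had undergone surgery when 9 weeks old, taken 2 weeks after it. The surgery was a sham operation (sham, 2 libraries) or partial ligation of the inferior vena cava (pIVCL, 3 libraries), which narrows the vein that drains the liver and is used as a model of hepatic congestion. No gene was altered in either group, and each label names a single mouse as the source, without saying whether any animal gave more than 1 library. The p-values therefore reflect library-to-library spread, part of which may be technical. The livers were digested with pronase and collagenase, hepatocytes were spun out, and dead cells and erythrocytes were removed on a density gradient. Both sham libraries and pIVCL 1 carry the batch label 2021.3 and pIVCL 2 and 3 the label 2021.7, so the second batch holds pIVCL samples only.

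The large-vessel cells numbered 94 and 82 in the sham libraries and 27, 26 and 15 in the pIVCL libraries. They held 515484 and 417766 molecules in sham against 106853, 106534 and 81560 in pIVCL, with medians of 4721 and 4355.5 against 3708, 3777.5 and 4109 molecules per cell. Levels below are in CPM, the molecule count of a gene scaled to a fixed total of the molecules summed over the large-vessel cells, or the sinusoidal cells, of a library. Sinusoidal cells are the 8962 endothelial cells with at least 6 molecules of Stab2 and Clec4g. No cell barcode was shared between libraries among the 244 cells, and 3 of them shared a barcode with some other cell of another library, against 131 of 17057 barcodes over all cells.

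Libraries pIVCL 2 and pIVCL 3 each held a few large-vessel cells that carried transcripts of another cell class. The erythroid list made up 0.859% of the large-vessel molecules in pIVCL 2 and at most 0.0196% in each other library. In pIVCL 2, 1 cell held 92.9% of the pIVCL molecules of the macrophage gene Lyz2 and 1 cell held 95.8% of those of the hemoglobin gene Hba-a1. In pIVCL 3, 1 cell held 90.4% of the pIVCL molecules of the fibroblast gene Dcn, and all Acta2 molecules of the pIVCL cells lay in 1 cell. The stellate and fibroblast list (16 genes, all detected) made up 0.00912 and 0.0136% of the large-vessel molecules in sham and 0.0243, 0.0225 and 0.416% in pIVCL, and the hepatocyte list (27 genes, all detected) 0.146 and 0.0479% against 0.123, 0.102 and 0.573%. Over all libraries, 10 of the 244 cells drew 1% or more of their molecules from a marker list of another cell class (4, 1, 1, 2 and 2 by library in the order above). Some of the results that may rest on them, but not all, are given with and without these cells.

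The cells were also high in Adgrg6 and Nrg1, markers of the label that the rule did not read. These markers were chosen with earlier results of these data known, so their levels describe the cells and do not test the label. Adgrg6, an adhesion receptor listed as a portal venous marker, stood at 1335 and 1470 CPM in the sham and 983, 1136 and 1042 in the pIVCL large-vessel cells, against 23.1 to 52.2 in the sinusoidal cells of the same libraries. Nrg1, which encodes the growth factor neuregulin 1, stood at 272 and 342 against 299, 113 and 110 in large-vessel cells and at 1.32 to 4.40 in sinusoidal cells. Both genes were higher in large-vessel cells in 5 of 5 libraries, by 30.2-fold and 78.5-fold as ratios of the means. At least 1 Adgrg6 molecule was found in 93.9% of large-vessel cells and 6.74% of sinusoidal cells, and in 84.3 and 4.23% after every cell had been thinned to 2000 molecules (242 and 8879 cells were deep enough). Median depth was 4359.5 and 4850.5 molecules per cell in the 2 classes, and the hepatocyte transcript Alb, which neither class makes, was found in 38.5 and 40.0% of their cells. The lymphatic markers Pdpn, Ccl21a and Mmrn1 were at 0 in all 244 cells, and Prox1 was at 12.3 or less.

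Portal and arterial cells were not told apart here, since the rule takes both and the only split made used Gja5, which is itself part of the rule. At least 1 molecule of both Vwf and Gja5 was found in 168 cells, Gja5 alone in 18 and Vwf alone in 58. The share of cells with Gja5 was 79.8 and 79.3% in sham and 63.0, 73.1 and 66.7% in pIVCL, in cells of lower depth. Set against the 58 Vwf-only cells, cells with Gja5 differed by less than the larger SD in the arterial genes Sox17 (261 ± 97.7 against 265 ± 84.2, SD over 5 libraries), Bmx, an arterial kinase (220 ± 87.2 against 219 ± 138), Efnb2, the arterial ephrin (352 ± 40.5 against 396 ± 89.3), and Gja4, connexin 37 (443 ± 241 against 408 ± 239). The venous factor Nr2f2 stood at 1677 ± 257 with Gja5 and 1669 ± 510.0 without. Other genes of the arterial list leaned toward the cells with Gja5. Sema3g, an arterial semaphorin, stood at 81.2 ± 48.9 against 21.4 ± 41.7 and was higher in 4 of 5 libraries, with 102 molecules in all against 3. Hey1, a Notch target, was also higher in 4 of 5 (48 molecules against 5), and Unc5b and Cxcl12 in 3 of 5 (31 molecules against 1 for each), while cells with Gja5 held more molecules in every library. The arterial genes Alpl, Gkn3 and Hey2 were at 0 in every library.

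Some genes leaned the same way in every library. Among genes at 100 CPM or more, those with the largest ratio and the same sign in 5 of 5 libraries were Col8a1, a short-chain collagen (520 ± 99.3 with Gja5 against 117 ± 80.3 without), Tmem254a, Ikbkb, Nrg1 (255 ± 100 against 148 ± 139), Nek9, Ano6, Cfl2 and Ppdpf. Vegfc, a growth factor for lymphatic vessels, was also higher in cells with Gja5 in 5 of 5 libraries (300 ± 108 against 198 ± 71.7), and Adgrg6 in 4 of 5 (1300.4 ± 238 against 831 ± 340). For Nrg1 and Vegfc the means differed by less than the larger SD. In Vwf-only cells, Tmem254a, Ikbkb, Nek9, Ano6, Cfl2 and Ppdpf rested on 8 to 15 molecules in all, with some libraries at 0. Nrg1 was at 0 there in pIVCL 2 and 3. The share of all genes with the same sign in 5 of 5 libraries was not counted. In the other direction stood Hic1, Hmox1, Dse, Zcchc7 and Prdx5, with 19 to 50 molecules in all for each of them in the Vwf-only cells. Odc1, Il2rb and Slc25a30 ranked beside them only through the 0.5 molecules added before the ratio: Il2rb was at 0 in both sets in 3 libraries, Slc25a30 in 1, and Odc1 in sham 1 stood at 23.3 with Gja5 and 23.1 without. Lyve1, a hyaluronan receptor of sinusoids, was lower in cells with Gja5 in 5 of 5 libraries (147 ± 88.3 against 1066 ± 1413). Because Gja5 defines the split and is one of the selecting genes, these are levels without a test, and the few Vwf-only cells (5 to 19 a library) make their values coarse.

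**Figure D1:**
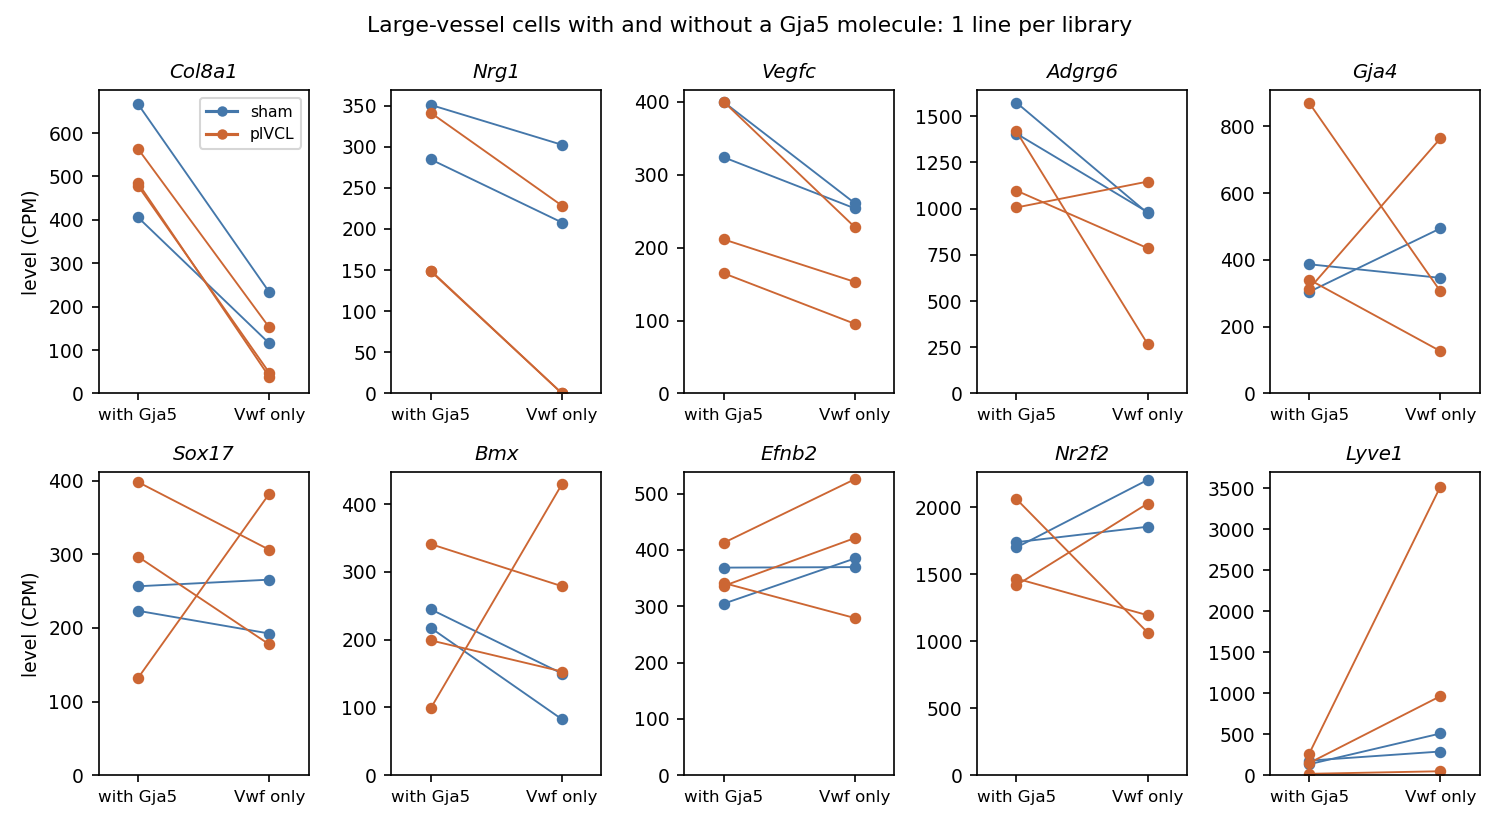
Levels in CPM (y axis) of 10 genes in large-vessel cells with at least 1 Gja5 molecule and in Vwf-only cells (x axis), with 1 line for each library (blue sham, orange pIVCL). Col8a1, Nrg1 and Vegfc fall and Lyve1 climbs from left to right in 5 of 5 libraries, while the lines of Gja4, Sox17, Bmx, Efnb2 and Nr2f2 go either way.

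Cells just inside and just outside the Vwf and Gja5 threshold differed by degrees. With all other criteria met, 313 cells had 0 molecules of Vwf and Gja5, 53 had 1, 44 had 2, 32 had 3 and 25 had 4. Adgrg6 stood at 360 CPM in the cells with 0, 925 in those with 1, 973 in those with 2, 954 in those with 3 and 1457 in those with 4. Lyve1 went the other way, from 2127 at 0 and 1170 at 1 to 698 at 2, 235 at 3 and 516 at 4. The lymphatic gene Ccl21a was at 315 in the cells with 0 and at 0 in those with 1 to 4. The rule thus cuts through a range in which Adgrg6 differed little between the cells just outside and just inside.

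Large-vessel cells had their own set of highly expressed genes, and the 15 with the largest ratio to sinusoidal cells at 50 CPM or more fell into a few groups. The ratio is a description, since the rule chose the cells in this contrast: of the 2519 genes that passed the low-count filter in large-vessel cells, 625 (24.8%) were above and 299 (11.9%) below sinusoidal cells in all 5 libraries. Wall and matrix genes among the 15 were Mgp, matrix Gla protein, an inhibitor of calcification (520 and 383 in sham, 814, 1239 and 2060 in pIVCL, 0.225 to 4.36 in sinusoidal cells), Lox, the enzyme that crosslinks elastin and collagen (169-fold), Col8a1 (145-fold) and Spon1 (299-fold). Signalling genes were Sfrp1, a secreted Wnt antagonist (408-fold), Sema3g (107 and 83.8 against 65.5, 56.3 and 24.5), Cd200, an immune inhibitory ligand (122-fold), and Bmx (189-fold). Nkx2-3, a homeobox factor (73.7 and 83.8 against 46.8, 37.5 and 73.6), was at 0 in the sinusoidal cells of all 3 pIVCL libraries and at 0.396 or less in sham. The remaining genes were Cyp1a1, Ly6c1, Syt15, Cpe, Wipf3 and Plat, tissue plasminogen activator (75.7-fold).

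Cyp1a1, a monooxygenase induced through the aryl hydrocarbon receptor, stood at 371 and 534 in sham and 580, 713 and 319 in pIVCL large-vessel cells, and between 0.146 and 4.91 in sinusoidal cells. It was found in 130 of 244 large-vessel cells (53.3%) and 35 of 8962 sinusoidal cells (0.391%), or 38.8 and 0.225% after thinning. The groups overlapped in large-vessel cells.

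Counts by role take only genes that passed the low-count filter in large-vessel cells, so list members low in these cells were left out beforehand. Of all genes that passed it, 24.8% were above and 11.9% below. Of 22 arterial genes outside the rule, 10 were tested, and 8 of these were above sinusoidal cells in all 5 libraries. Among them were the Notch ligand Jag1 (246 and 278 against 262, 235 and 172, 13.9-fold) and the transcription factor Mecom (6.67-fold). Only Nrp1 (0.416-fold) was below in all 5. Alpl, Gkn3 and Hey2, at 0 in large-vessel cells, were among those left out. Of 14 portal venous genes outside the rule, 11 were tested and 6 were above. They included Lrg1 (21.5-fold), Vegfc (8.58-fold), Bmp4 (8.55-fold) and Selp, P-selectin (3.39-fold), beside Adgrg6 and Nrg1. Of 25 continuous endothelium genes outside the rule, 23 were tested, with 16 above and none below. Examples were Cd34 (13.4-fold), Tspan13 (16.4-fold), Jam2, a junction protein (5.27-fold), and Ly6a (8.28-fold). Of the vasoactive list, Ednrb, the endothelin B receptor, was 17.6-fold and Ace, angiotensin-converting enzyme, 37.8-fold higher. Elastic fibre genes were Eln, elastin (54.6-fold), Fbln2 (28.6-fold) and Fbln5 (20.2-fold).

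On the other side, 16 of 17 tested genes of the sinusoidal identity list were below sinusoidal cells in all 5 libraries and none was above. Fcgr2b, an Fc receptor, was 0.0944-fold, Dnase1l3, a secreted nuclease, 0.0759-fold, Mrc1, the mannose receptor, 0.223-fold, Bmp2 0.103-fold and Kdr, the main VEGF receptor, 0.191-fold the sinusoidal level. The 15 genes lowest in large-vessel relative to sinusoidal cells were Aass, Mt2, Wnt2, Cnr2, Ccn4, Adam23, Cntfr, Plau, Cxcl9, Gmfg, Kit, Abcc9, Tpbgl, Pla2r1 and Dpp4, at 0.0205-fold (Wnt2) to 0.101-fold (Plau). The central vein list was mixed. Wnt2 was at 9.36 or less and Kit at 24.5 or less in each library. Only 4 of the 13 members outside the rule passed the low-count filter, which left out members low in large-vessel cells, such as Wnt2 and Kit. The absence of a tested member below sinusoidal cells in all 5 libraries therefore says little. Above in all 5 libraries were 3 of the 4: Thbd, thrombomodulin (2.21-fold), Cdh13, T-cadherin (4.93-fold), and Selp. Fabp4, a fatty acid binding protein, was higher in 4 of 5 (1.49-fold).

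**Figure D2:**
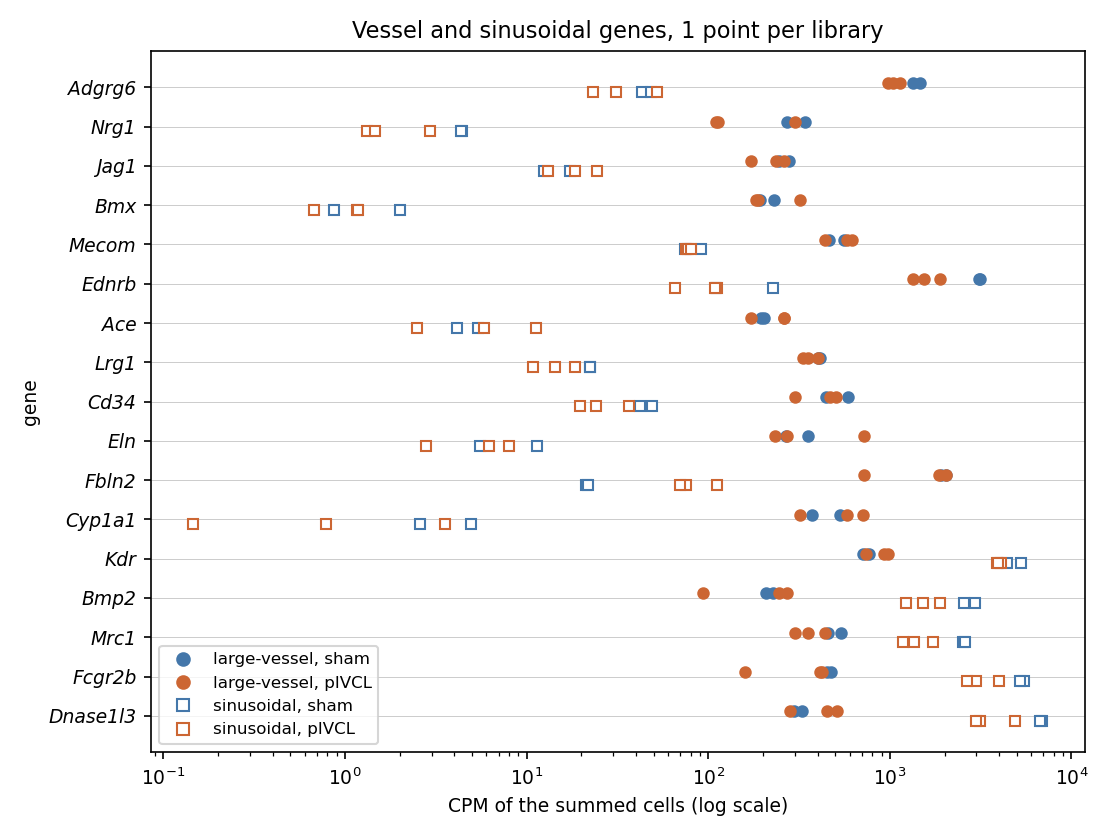
Levels in CPM (x axis, log scale) of 17 genes (y axis), with 1 point per library for large-vessel cells (filled circles) and sinusoidal cells (open squares) in sham (blue) and pIVCL (orange). For each gene from Adgrg6 down to Cyp1a1 the filled points lie to the right of all open points, and from Kdr down to Dnase1l3 they lie to the left.

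Large-vessel cells were a smaller share of the endothelial cells after pIVCL. They made up 3.24% of the endothelial cells in sham 1 (exact 95% binomial interval 2.62 to 3.95) and 3.25% in sham 2 (2.60 to 4.02), against 1.70% (1.12 to 2.47), 1.31% (0.856 to 1.91) and 1.91% (1.07 to 3.14) in pIVCL 1, 2 and 3. The groups did not overlap, and the means were 3.25 ± 0.0104% and 1.64 ± 0.307% (SD, n = 2 and 3), a difference of -1.60 percentage points. The two-sided exact permutation test gave p = 0.2, the smallest p that the 10 splits of 5 libraries allow, so the design could not reach 0.05. Within batch 2021.3 the difference was -1.54 points with 1 pIVCL library. The thresholds count raw molecules and depth was lower in pIVCL. After thinning every cell to 2000 molecules the shares were 2.58 and 2.67% against 1.80, 1.32 and 1.87%, again without overlap, and the ratio of the means was 1.58 in place of 1.98. Intervals cover counting error only. In the chosen cells the median of Vwf and Gja5 together was 6 molecules in sham and 4 in pIVCL. Endothelial cells that met every other criterion but had 0 molecules of both numbered 46 and 47 in sham and 79, 96 and 45 in pIVCL. Whether fewer such cells were present, fewer were released by the digestion or fewer reached the Vwf and Gja5 threshold cannot be told apart.

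**Figure D3:**
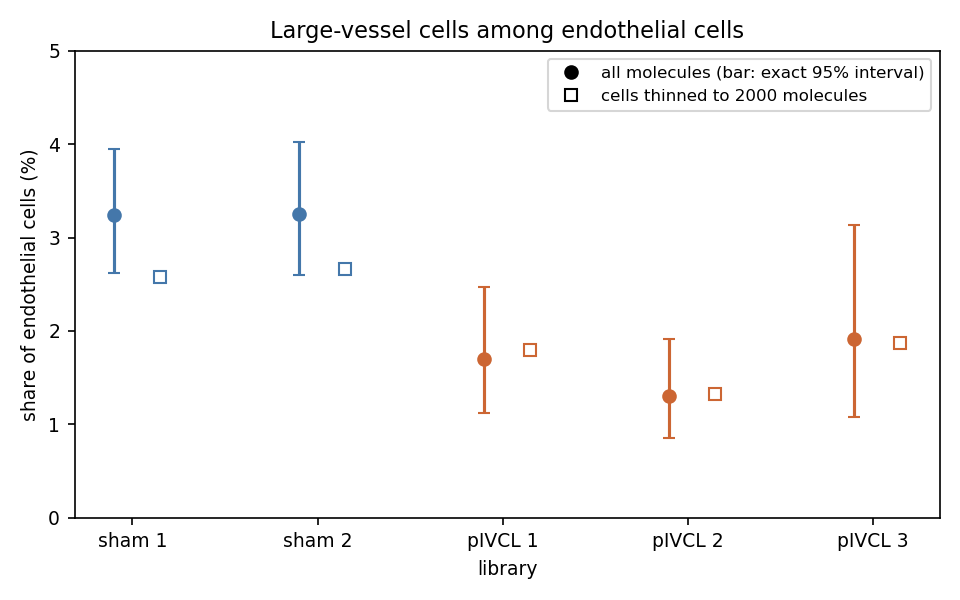
Share of endothelial cells that met the large-vessel rule (y axis, %) in each library (x axis; blue sham, orange pIVCL), from all molecules with the exact 95% binomial interval (filled circles) and from cells thinned to 2000 molecules (open squares). Both sham libraries lie above 3% and all pIVCL libraries below 2% with all molecules, and the gap is smaller after thinning.

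Within large-vessel cells, Ly6c1 fell after pIVCL. Ly6c1 encodes a surface protein of the LY6 family that marks continuous endothelium and some leukocytes. It stood at 584 and 450 CPM in sham and at 178, 122 and 123 in pIVCL. The groups did not overlap, and the log2 fold change was -1.85 ± 0.29 (SE; edgeR quasi-likelihood test, Benjamini-Hochberg adjusted p = 0.0163). It was found in 86 of 176 sham cells (48.9%) and 17 of 68 pIVCL cells (25%), or 36.4 and 16.7% after thinning, against 1.54 and 0.103% of sinusoidal cells. Within batch 2021.3 the log2 fold change was -1.58 (edgeR adjusted p = 0.00195, with 1 pIVCL library assumed to vary like the others). The call held in 11 of 17 other settings. It was lost with the strict cell filter (at least 1000 molecules and at most 10% mitochondrial) and with Vwf and Gja5 of at least 3 (edgeR adjusted p = 0.0776 and 0.0824), with batch as a term (log2 -1.58, edgeR adjusted p = 0.474) and without pIVCL 2, pIVCL 3 or sham 1 (edgeR adjusted p = 0.244, 0.0566 and 0.0632). In sinusoidal cells Ly6c1 was near its floor and fell as well (6.26 and 4.44 against 0.877, 0.112 and 0), and the 2 responses were not shown to differ (difference 1.80, edgeR adjusted p = 0.107).

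Ly6c1 was the only one of 2519 genes tested that passed at an adjusted p of 0.05 (0.0397%). At an unadjusted p of 0.05, 252 genes passed (10%), and DESeq2's Wald test also called 1 gene. The groups did not overlap for 627 genes (24.9%), of which 296 were higher (11.8%) and 331 lower (13.1%) in pIVCL. The pIVCL sums held only 68 cells, so small changes may not have been detectable at this depth.

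The 9 genes next in order of p did not pass, but none overlapped between the groups. Ly6a, a relative of Ly6c1 also known as Sca-1, stood at 5249 and 5798 in sham and 3547, 2487 and 1974 in pIVCL (log2 -1.04 ± 0.24, edgeR adjusted p = 0.124). Ednrb, which takes up endothelin and couples to nitric oxide release, stood at 3139 and 3107 against 1881, 1333 and 1545 (log2 -0.96 ± 0.22, edgeR adjusted p = 0.119). Both were lower in 3 of 3 pIVCL libraries. Insr, the insulin receptor, stood at 293 and 417 against 178, 113 and 73.6, Atp13a3, a polyamine transporter, at 241 and 326 against 122, 84.5 and 98.1, and Gbp4, an interferon-induced GTPase, at 206 and 261 against 74.9, 84.5 and 98.1. Higher in 3 of 3 pIVCL libraries were Bmp6, a BMP ligand that controls hepcidin (79.5 and 83.8 against 225, 235 and 257, log2 1.56 ± 0.30, edgeR adjusted p = 0.0951), and Masp1, a protease of the lectin complement pathway (58.2 and 55.1 against 168, 178 and 245, edgeR adjusted p = 0.0992). So were Fblim1, a filamin-binding adhesion protein (17.5 and 12 against 84.2, 141 and 147), and Rbms3, an RNA-binding protein (69.8 and 40.7 against 150, 263 and 135). Without the 10 cells that carried another class, Bmp6 (log2 1.70, edgeR adjusted p = 0.0303), Ednrb (log2 -1.03, edgeR adjusted p = 0.0330) and Ly6a (log2 -0.94, edgeR adjusted p = 0.0330) passed as well. That setting was chosen after seeing the data. Over all 17 other settings Bmp6 passed in 7, Ednrb in 6 and Ly6a in 4.

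**Figure D4:**
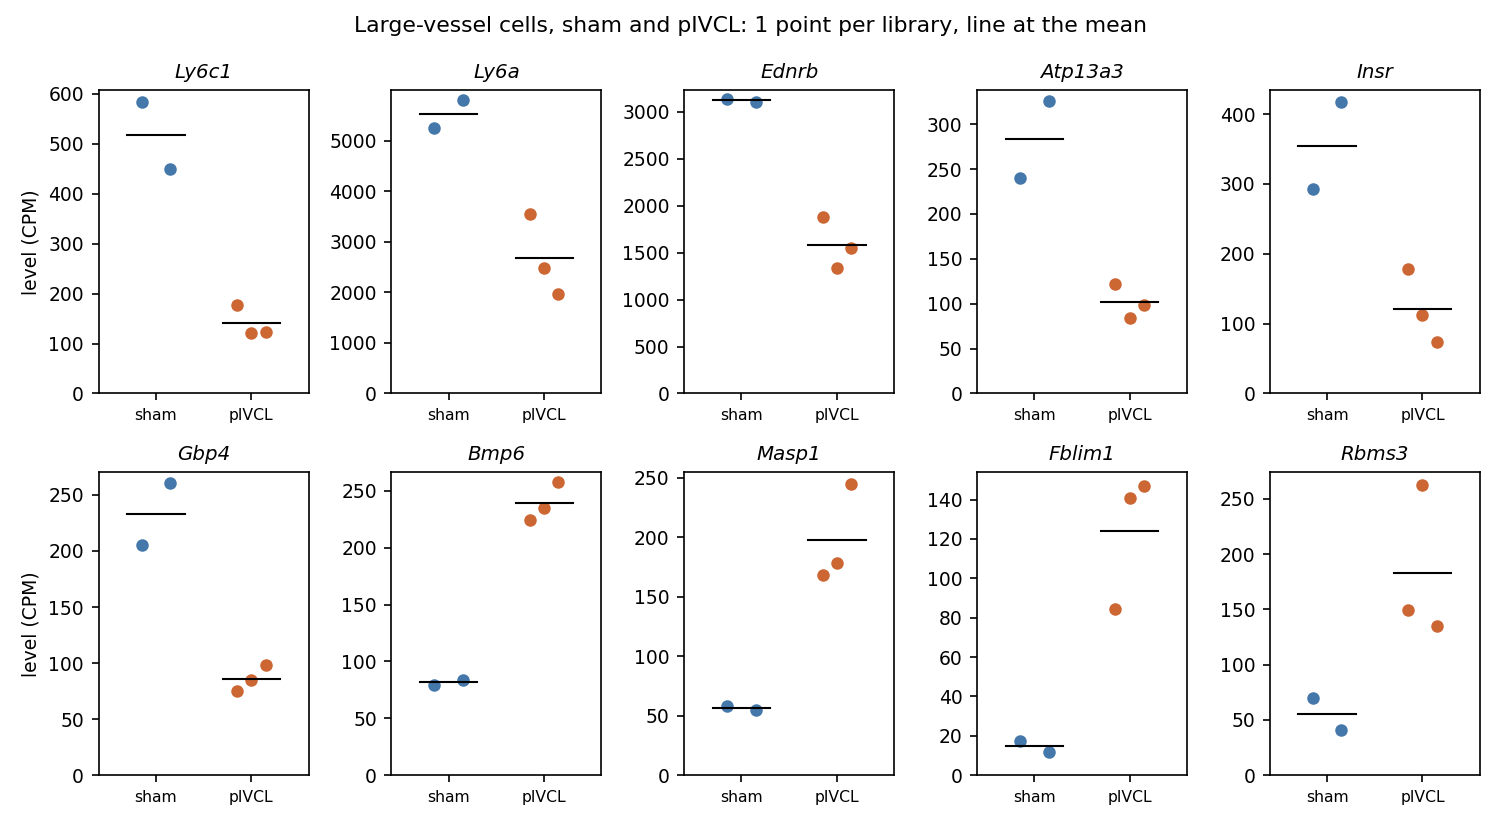
Levels in CPM (y axis) of the 10 genes of lowest p in large-vessel cells, with 1 point per library of sham (blue) and pIVCL (orange) and a line at the group mean. The points of the 2 groups do not overlap for any of them, with Ly6c1, Ly6a, Ednrb, Atp13a3, Insr and Gbp4 lower and Bmp6, Masp1, Fblim1 and Rbms3 higher in pIVCL, and only Ly6c1 passed the test.

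A set of 28 further vascular genes was read whatever its result. Of these, 24 were tested, Ly6c1 passed, and 23 did not (edgeR adjusted p = 0.124 to 0.989), while Hey1, Esm1, Angpt2 and Icam1 were under the low-count filter. Adgrg6 was lower in 3 of 3 pIVCL libraries without passing (log2 -0.39 ± 0.21, edgeR adjusted p = 0.55). The flow-induced factor Klf4 stood at 502 and 598 against 440, 178 and 123, Thbd, thrombomodulin, at 264 and 280 against 206, 113 and 110, and neither group pair overlapped. Ccn2, a matricellular target of YAP, stood at 388 and 268 against 524, 788 and 944 (log2 1.22 ± 0.29, edgeR adjusted p = 0.145), and Plvap, the diaphragm protein of endothelial vesicles, at 1146 and 922 against 1413, 1370 and 1508. Klf2, Nos3, Edn1, Cd34, Nrg1, Sox17, Efnb2, Gja4, Ephb4, Eln, Ltbp4, Vcam1, Selp and Lyve1 overlapped between the groups. Edn1, the precursor of endothelin 1, stood at 689 and 383 against 833, 366 and 123.

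In the matrix and basement membrane list, 7 of 17 tested genes were higher in all pIVCL than in all sham libraries and none lower, beside 11.8 and 13.1% of all genes, and the median log2 fold change was 0.43 against 0.02 over all genes. None passed the test. The 7 were Mgp, Col4a1 and Col4a2 (the type IV collagen chains), Lama4 and Lamc1 (laminin chains), Hspg2 (perlecan) and Sparc, a collagen-binding glycoprotein. Col4a1 stood at 572 and 503 against 795, 788 and 1974, Hspg2 at 118 and 134 against 243, 207 and 282, and Sparc at 1538 and 1527 against 2433, 3116 and 7651. Library pIVCL 3 was highest for all 7, and it was also highest for the stellate and fibroblast list given above. Without the cells carrying another class the log2 fold change of Col4a1 was 0.71 in place of 1.17, that of Sparc 0.94 in place of 1.57, that of Hspg2 0.90 in place of 0.96 and that of Mgp 1.88 in place of 1.63.

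In the immediate-early and stress list, 6 of 14 tested genes were lower in all pIVCL than in all sham libraries and none higher (median log2 -0.74), and none passed. They were the AP-1 components Fos, Fosb, Jun and Jund, the growth-response factor Egr1 and the antiproliferative gene Btg2. Fos stood at 2753 and 3775 against 1469, 1014 and 233, and Jun at 2080 and 2674 against 1825, 957 and 760. Genes of this kind are known to be induced when tissue is dissociated, and the part of handling in these values was not tested. In sinusoidal cells of the same libraries Fos averaged 2071 in sham and 878 in pIVCL. The continuous endothelium list had 6 of 23 tested genes lower (Ly6a, Ly6c1, Tjp1, Tm4sf1, Slc9a3r2 and Ahnak) and 2 higher (Plvap and Aqp1), with a median of -0.24. Beside 11.8% of all genes higher and 13.1% lower, the arterial list had 1 of 10 higher (Dll4) and none lower, the portal venous list 1 of 11 higher (Bmp4) and 2 lower (Adgrg6 and Nr2f2), and the vasoactive list 2 of 11 lower (Ece1 and Ednrb).

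The response to pIVCL was then compared between large-vessel and sinusoidal cells of the same 5 libraries, in 1 model with library as a block. Values are the log2 change of large-vessel cells minus that of sinusoidal cells, so a negative value means that the gene went up less, or down more, in large-vessel cells. Of 10810 genes, 122 differed (1.13%), 91 negatively (0.842%) and 31 positively (0.287%), and 922 had an unadjusted p under 0.05 (8.53%). The median over all genes was -0.15 with TMM scaling and -0.01 with DESeq2 size factors, under which 76 genes passed, 41 negatively and 35 positively. Without sham 1 or sham 2 the number of calls was 13 or 18. On simulated counts, 8 of 34 calls of this model were unchanged genes, so the adjusted p-values may be too small. In sinusoidal cells alone, 548 of 12048 genes passed (4.55%), 306 upward (2.54%) and 242 downward (2.01%), and the groups did not overlap for 43.2%.

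Depp1, a gene induced by FOXO factors and fasting, had the largest difference. In sinusoidal cells it rose from 11.3 and 17.2 to 178, 338 and 477 CPM. In large-vessel cells it stood at 122 and 115 in sham and 122, 37.5 and 36.8 in pIVCL, so it was higher than in sinusoidal cells in sham and lower in each pIVCL library. The difference was -5.37 ± 0.36 (edgeR adjusted p = 4.65e-42) and -3.73 within batch 2021.3. The pIVCL large-vessel levels rested on few Depp1 molecules, in sums of 106853, 106534 and 81560 molecules, so the size of the difference is coarse.

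Pdgfb, the ligand that recruits pericytes and stellate cells, rose in sinusoidal cells from 17.1 and 18.1 to 142, 135 and 207. Large-vessel cells held 208 and 156 in sham and 131, 122 and 233 in pIVCL, with overlap. The difference was -3.48 ± 0.32 (edgeR adjusted p = 7.27e-24), and -3.57 within batch 2021.3. After pIVCL the sinusoidal levels thus lay within the range of the large-vessel levels.

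Fbln5, an elastic fibre protein, rose in sinusoidal cells from 4.73 and 5.23 to 33.2, 51.0 and 43.9, and stood at 440 and 328 against 365, 760 and 895 in large-vessel cells (difference -2.44 ± 0.28, edgeR adjusted p = 1.23e-14). Without the cells carrying another class the difference was -1.78. Plvap was 225 and 207 against 491, 761 and 1078 in sinusoidal cells, where it rose, and the difference was -1.40 ± 0.20 (edgeR adjusted p = 2.92e-09). The call for Plvap was lost without sham 1 and with batch as a term (edgeR adjusted p = 0.113 and 0.0739). Selp, which tethers leukocytes, rose in sinusoidal cells from 9.66 and 11.9 to 49.9, 32.7 and 78.1 and overlapped in large-vessel cells at 149 and 76.6 against 187, 93.9 and 110 (difference -2.12 ± 0.42, edgeR adjusted p = 0.000235). Its call was lost in 4 of 17 other settings: within batch 2021.3, with batch as a term, without sham 1, and when only genes kept in the large-vessel sums were tested (edgeR adjusted p = 0.0514, 0.149, 1.0 and 0.0716).

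In the opposite direction, Slco2a1, the transporter that takes up prostaglandins, fell in sinusoidal cells from 451 and 356 to 90.2, 43.5 and 36.8. In large-vessel cells it stood at 565 and 424 against 580, 497 and 282, with overlap (difference 2.64 ± 0.25, edgeR adjusted p = 1.14e-21, 2.31 within batch 2021.3). Hpgd, the enzyme that inactivates prostaglandins after uptake, fell in sinusoidal cells from 348 and 376 to 102, 70.1 and 63.9 and stood at 190 and 259 against 225, 150 and 172 in large-vessel cells (difference 1.79 ± 0.31, edgeR adjusted p = 8.75e-06). Its call was lost without sham 1 (edgeR adjusted p = 0.21). Slco2a1 was higher in large-vessel than in sinusoidal cells of 5 of 5 libraries, and Hpgd was lower in both sham and higher in all pIVCL libraries.

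**Figure D5:**
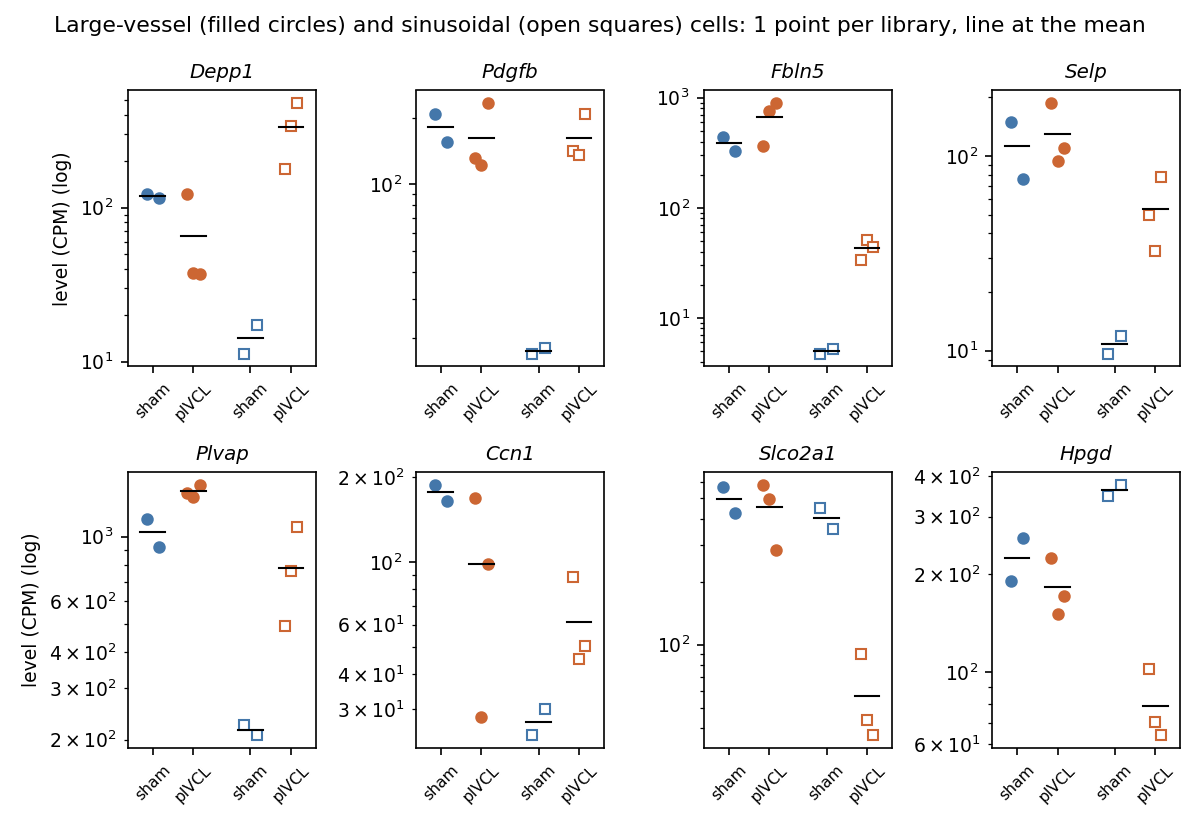
Levels in CPM (y axis, log scale, with its own range in each panel) in large-vessel cells (filled circles) and sinusoidal cells (open squares) of sham (blue) and pIVCL (orange), with 1 point per library and a line at the mean. The pIVCL squares lie above the sham squares for Depp1, Pdgfb, Fbln5, Selp, Plvap and Ccn1 and below them for Slco2a1 and Hpgd, while the circles of sham and pIVCL overlap in each panel except that of Plvap.

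Of the 20 named genes whose response differed, Depp1, Pdgfb, Fbln5 and Slco2a1 kept the call in 17 of 17 other settings and Hpgd in 16 of 17. The call was lost in 12 of 16 settings for Adk, 11 of 17 for Masp1, 10 of 17 for Bmp6, 9 of 17 for Slc26a10, 7 of 17 each for Lmo7 and Cyp1a1, 6 of 16 for Plxnc1, 5 of 17 for Gja4, 3 of 16 for Ifit3, 2 of 16 for Rgs2 and 2 of 17 for Ccn1. Further negative differences were Rgs2, a regulator of G-protein signalling (-2.43), Ifit3, an interferon-induced gene (-2.40), Adk, adenosine kinase (-2.35), and Ccn1, a YAP target (-2.21). Further positive ones were Slc26a10 (2.05), Cyp1a1 (1.95), Plxnc1, a semaphorin receptor (1.88), Lmo7 (1.53), Masp1 (1.23), Gja4 (1.15) and Bmp6 (1.15). Cyp1a1 overlapped between the groups in large-vessel cells and was near its floor in sinusoidal cells, found in 28 of 5072 sham and 7 of 3890 pIVCL cells. For Gja4 the large-vessel levels were 380 and 338 against 262, 732 and 429, and the difference was 0.64 within batch 2021.3 (edgeR adjusted p = 0.509). Mpeg1 (3.65) and H2-Eb1 (1.97), genes of macrophages and antigen-presenting cells, rested on few cells, with 70.0 and 89.3% of their pIVCL molecules in 1 cell each. Mpeg1 kept the call in 4 and H2-Eb1 in 8 of 16 other settings, and H2-Eb1 turned to -0.39 without the cells carrying another class.

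Read by list, negative differences in response were called for 3 of 13 portal venous genes tested (Selp, Vegfc and Bmp4), 4 of 12 periportal sinusoidal genes (Dll4, Ntn4, Galnt15 and Clu), 4 of 24 angiogenic genes (Pdgfb, Plvap, Vegfc and Dll4) and 3 of 19 immediate-early genes (Fos, Jun and Dusp1), beside 0.842% of all genes. A rise in sinusoidal cells alone is enough for such a call. Positive differences were called for 3 of 19 flow-response genes (Gja4, Slco2a1 and Cyp1b1) and 2 of 19 vasoactive genes (Slco2a1 and Hpgd), beside 0.287%. Vegfc stood at 312 and 376 against 337, 197 and 147 in large-vessel cells and averaged 18.0 in sham and 41.2 in pIVCL in sinusoidal cells (difference -1.84, edgeR adjusted p = 1.54e-06). Cd36, a fatty acid receptor of the sinusoidal list, was lower in 3 of 3 pIVCL libraries in large-vessel cells (1521 and 1992 against 1217, 864 and 772) and averaged 1146 in sham and 1752 in pIVCL in sinusoidal cells (difference -1.59, edgeR adjusted p = 4.72e-13). The 4 genes of the antigen presentation list with a positive call (H2-Aa, H2-Ab1, H2-Eb1 and Cd74) were highest in pIVCL 2, and 1 cell held 81.8 to 89.3% of the pIVCL molecules of each.

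Of 24 angiogenic and tip-cell genes tested in sinusoidal cells, 10 rose there, beside 2.54% of all genes tested in these cells. Large-vessel cells held genes of this list at uneven levels. Pdgfb, Plvap, Vegfc and the Notch ligand Dll4 were abundant in large-vessel cells of both groups, with Dll4 at 446 and 433 against 552, 526 and 539, and these are the 4 whose response differed. Esm1, Angpt2, Apln, Aplnr, Adm and Igfbp3 were under the low-count filter in large-vessel cells. Esm1 averaged 41.5 in sham and 503 in pIVCL in sinusoidal cells, whereas large-vessel cells held 48.5 and 9.57 against 0, 0 and 135, with all 11 pIVCL molecules in 1 cell. Angpt2, a ligand of TIE2, averaged 22.4 and 212 in sinusoidal cells and reached at most 24.5 in large-vessel cells, on 6 molecules in pIVCL. Neither difference in response passed (-3.43 ± 1.9 for Esm1 and 0.87 ± 1.42 for Angpt2, edgeR adjusted p = 0.793 and 0.944).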

How the data were processed

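The deposited files hold molecule counts per cell and gene from BD Rhapsody whole transcriptome libraries, made with the BD Rhapsody pipeline 1.9.1 per the file headers and on GRCm 39 per the submitters' processing notes. Unique molecular identifiers were error-corrected by that pipeline, per the file headers. For the aligner and the annotation, the version is "not given in the sources used here". Counts name genes by symbol, without coordinates.

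Cells were filtered and chosen as the report states, and counts were summed per library and cell class. Sums were tested with edgeR 4.0.16 (R 4.3.3; quasi-likelihood, robust, TMM scaling, low-count filter by group, Benjamini-Hochberg at 0.05), and responses of 2 classes with library as a block and a class-by-group term. Log2 fold changes come from these fits. Printed levels are CPM, molecules scaled to a common total per sum, and log2 ratios of levels add 0.5 molecules. DESeq2 1.42.0 gave an alternative test, and Scrublet in scanpy 1.11.5 ranked doublets, of which the top 3% per library were left out only as an alternative. Shares were compared by a two-sided exact permutation test (scipy 1.17.1). The fits were tested on simulated counts. For large-vessel cells, 37.3% of 2-fold and 89.4% of 4-fold changes were recovered, and 8 of 96 calls were unchanged genes. For the difference of response, 7.46% of 2-fold and 30.3% of 4-fold changes were recovered, and 8 of 34 calls were unchanged genes. Alternatives covered scaling, filters, thresholds, batch, depth and each library left out.

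The cells and the gene lists were chosen with earlier results of these data known. Named genes were, for sham against pIVCL, the 10 of lowest p (under 5 passed) and 28 fixed vascular genes; for the difference of response, the 8 largest passing each way and up to 4 passing members of a list; for levels, the 15 largest ratios each way at 50 CPM or more; for the Gja5 split, the 8 largest each way at 100 or more. Genes of the rule and of other cell classes, and ribosomal, mitochondrial, histone and predicted genes, were left out of the ranked names. List members beyond these were named after their values were seen.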

Additional observations from a re-analysis of the deposited data

Results flagged for a closer look

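For 20 named genes the response to pIVCL differed between large-vessel and sinusoidal cells by the class-by-group term of edgeR's quasi-likelihood test. The values are the log2 change in large-vessel cells minus that in sinusoidal cells. Negative values were found for Depp1 (-5.37), Pdgfb (-3.48), Fbln5 (-2.44), Rgs2 (-2.43), Ifit3 (-2.40), Adk (-2.35), Ccn1 (-2.21), Selp (-2.12) and Plvap (-1.40). Positive values were found for Mpeg1 (3.65), Slco2a1 (2.64), Slc26a10 (2.05), H2-Eb1 (1.97), Cyp1a1 (1.95), Plxnc1 (1.88), Hpgd (1.79), Lmo7 (1.53), Masp1 (1.23), Gja4 (1.15) and Bmp6 (1.15). Rgs2, Ifit3, Adk and Plxnc1 rested on 15, 9, 8 and 20 molecules in the pIVCL large-vessel cells, and Depp1 was also low in molecules there. Cyp1a1 was near its floor in the sinusoidal cells of both groups. With 2 sham and 3 pIVCL libraries no group was large enough for a search for single outlying libraries.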

How the results depend on the processing

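The number of genes called in large-vessel cells was 1 and moved to 62 with no low-count filter, 0 with the strict cell filter (233 at an unadjusted p of 0.05), 0 with Vwf and Gja5 of at least 3 (201), 5 with Stab2 and Clec4g of at most 2, 3 without high doublet scores, 72 within batch 2021.3, 0 with batch as a term (235) and 4 without the cells carrying another class, a setting chosen after seeing the data. Leaving out 1 library gave 0 to 31 calls: 9 without sham 1, 3 without sham 2, 31 without pIVCL 1, and 0 without pIVCL 2 or pIVCL 3 (383 and 363 at an unadjusted p of 0.05). The number of genes whose response differed was 122 and moved to 76 with DESeq2 size factors, 66 with no low-count filter, 79 with the strict cell filter, 55 with Vwf and Gja5 of at least 3, 75 with Stab2 and Clec4g of at most 2, 37 with batch as a term and 33 when only the 2519 genes kept in the large-vessel sums were tested, also chosen after seeing the data. Leaving out 1 library gave 13 to 143 calls, with 13 without sham 1 and 18 without sham 2. The difference turned for Mpeg1 to -4.97 within batch 2021.3 and -4.64 with batch as a term. For H2-Eb1 it turned to -1.72 with the strict cell filter, -0.72 with Vwf and Gja5 of at least 3, -0.83 within batch 2021.3, -0.90 with batch as a term and -0.39 without the cells carrying another class. The cause of these shifts was not tested. The difference in share lay between -1.79 and -0.963 percentage points in 13 alternatives, and the number of genes above sinusoidal cells between 594 and 837.

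With the replicate number as a replicate block, 26 genes were called in large-vessel cells and 104 for the difference of response, 70 of them among the 122. Deviations of same-numbered samples correlated at -0.053 and 0.016. With 2 sham libraries the sham deviations mirror each other, so these values cannot settle whether same-numbered samples were paired. With 68 pIVCL cells, depth limits the test to large changes.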

Other observations

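Cyp1b1, a monooxygenase of the same family as Cyp1a1, stood at 3.88 and 2.39 CPM in sham and 18.7, 113 and 123 in pIVCL large-vessel cells, on 24 pIVCL molecules of which 41.7% lay in 1 cell. In sinusoidal cells it stood between 0 and 1.75. The difference of response was 5.05 (edgeR adjusted p = 0.0248). Fbln2, an elastic fibre protein, stood at 2045 and 1903 against 1862, 2046 and 723 in large-vessel cells and rose in sinusoidal cells from a mean of 21.6 to 85.6, and the responses were not shown to differ (edgeR adjusted p = 0.567).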
